A study of Homo sapiens with 2 samples.

Results

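The ATP-binding cassette (ABC) family holds the membrane pumps that export cytostatic drugs, lipids, peptides and metabolites. Its members were chosen by symbol, with earlier results of these data known, and no measured value entered the rule. The rule took every probe set with a single annotated gene symbol that begins with ABCA to ABCG followed by a number. This gave 99 of the 54675 probe sets on the array, for 45 of 19775 genes. Of the 45 genes, 13 belong to subfamily ABCA, 8 to ABCB, 12 to ABCC, 3 to ABCD, 1 to ABCE, 3 to ABCF and 5 to ABCG, and 4 of them (ABCA11P, ABCA17P, ABCC13 and ABCC6P1) are annotated as pseudogenes.

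The cells were L-428, an established line from Hodgkin lymphoma (HL). One Affymetrix array was hybridized with RNA from cells carrying pcDNA6.2-GW/EmGFP-miR-neg as the control, and 1 array with RNA from cells carrying pcDNA6.2-GW/EmGFP-miR-PRAME, which encodes an artificial microRNA against PRAME (preferentially expressed antigen in melanoma). Stable transfectants had been selected with blasticidin in either case, and the sources used here do not say whether they were clones or pools. The microarray comparison was made to look for genes that might account for a higher drug sensitivity after PRAME knock-down. With 1 array per condition there is no replicate check, so differences are described by their size, and no test of them was possible. The PRAME probe set 204086_at had a signal of 2115 on the control array and 1251 on the knock-down array, a log2 ratio of -0.80.

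Of 7 genes that mark HL cells 6 had a probe set with a single symbol, and these 6 passed the filter described next. Signals on the control and knock-down array were 1893 and 1667 for TNFRSF8 (CD30) and 6090 and 5537 for the chemokine CCL17. Those of FSCN1 (fascin) were 11028 and 11799. In this list 2 of the 6 genes were at least 1.5-fold lower, where the share over all measured genes was 5.42%. They were CD40 (1850 and 1146, -0.74) and FUT4 (CD15, 1177 and 782, -0.63), but the probe sets of CD40 went up to 0.66 and those of FUT4 up to 0.36. IRF4 had 4633 and 5703 (0.25). Of the marker lists for other cells, 0 of 4 T cell genes, 0 of 3 myeloid genes and 1 of 4 epithelial genes (KRT8, 157 and 159) passed. Of 5 B cell markers 4 had a probe set with a single symbol and 3 passed. The signal of CD79A was 178 on the control array and 332 on the knock-down array. For MS4A1 (CD20) the signals were 95.9 and 135, and for PAX5 they were 232 and 218. The general description of the series names another HL cell line, L-540, and another array type, whereas the sample labels name L-428.

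Values are MAS5 signals, which are on a linear scale, and log2 ratios of knock-down over control. Every log2 ratio was centered, so that the median of all probe sets above the filter is 0. A gene is called measured if a probe set had a mean signal of at least 97.7, the median of the array, and it is represented by its probe set with the highest mean signal. Probe sets bind their targets with different strength, so signals are compared between arrays and not between genes. In RNA from a cell population, fewer cells with a transcript and less transcript per cell cannot be told apart.

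ABC transporters bind ATP in a pair of conserved nucleotide-binding domains, and the energy moves a substrate across a membrane. ABCB1 (P-glycoprotein, MDR1), ABCC1 (MRP1) and ABCG2 (BCRP) are known for the efflux of cytostatic drugs from tumor cells, anthracyclines and etoposide among them. Other members carry lipids (many ABCA genes), conjugates with glutathione (several ABCC genes), very long-chain fatty acids into peroxisomes (ABCD genes) or intermediates of heme and iron metabolism in mitochondria (several ABCB genes). ABCE1 and the ABCF proteins have the ATP-binding domains but no membrane domain, and they act on ribosomes.

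The DNA upstream of 4 members, picked with results of these data known, is shown first. These are the drug efflux genes ABCB1 and ABCG2, ABCC4 (MRP4, which exports cyclic nucleotides and nucleoside analogs) and ABCA3 (a phospholipid carrier), a gene with a higher signal in the knock-down cells. Each line gives the 150 bases before the transcription start that lies nearest to the rest of the gene, 5′ to 3′ on the strand of the gene, from RefSeq on GRCh38.p14. Capitals mark matches, on either strand, to 4 sets of letters: CCAAT (the CCAAT box bound by NF-Y), GGGCGG (the GC box bound by SP1), AGGTCA (the core repeated in retinoic acid response elements) and GCGTG (the core bound by the aryl hydrocarbon receptor).
ABCB1, chr7:87600885-87601034, minus strand: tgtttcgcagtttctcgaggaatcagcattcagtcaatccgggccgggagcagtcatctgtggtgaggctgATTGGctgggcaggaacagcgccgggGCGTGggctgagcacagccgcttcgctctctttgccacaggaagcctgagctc
ABCG2, chr4:88158640-88158789, minus strand: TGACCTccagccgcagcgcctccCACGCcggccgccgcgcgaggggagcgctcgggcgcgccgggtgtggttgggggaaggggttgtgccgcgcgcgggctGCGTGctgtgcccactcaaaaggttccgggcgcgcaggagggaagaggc
ABCC4, chr13:95301452-95301601, minus strand: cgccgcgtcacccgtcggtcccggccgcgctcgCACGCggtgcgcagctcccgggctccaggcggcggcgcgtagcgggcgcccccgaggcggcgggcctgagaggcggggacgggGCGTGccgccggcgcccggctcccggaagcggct
ABCA3, chr16:2340729-2340878, minus strand: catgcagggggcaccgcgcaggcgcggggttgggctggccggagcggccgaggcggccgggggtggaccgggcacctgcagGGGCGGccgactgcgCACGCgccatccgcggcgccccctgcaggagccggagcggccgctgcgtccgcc

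The window of ABCB1 holds a CCAAT box, on the opposite strand as ATTGG, and 1 GCGTG. The window of ABCG2 begins with AGGTCA on the opposite strand (TGACCT) and holds GCGTG at 2 places. GCGTG stands at 2 places in the window of ABCC4 as well, and at 1 place in that of ABCA3, beside a GC box. Of the bases, 60.7% are G or C before ABCB1, 76% before ABCG2, 82.7% before ABCA3 and 84.7% before ABCC4. The RefSeq table lists 2 starts for ABCB1 and 5 for ABCG2, and only 1 start of each is shown.

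The table held promoters of 33 of the 45 family genes, with 49 starts. CCAAT was found in the windows of 9 of the 49 starts (18.4%) and of 23.5% of all 35116 promoters. GGGCGG was found at 22 of the family starts (44.9%) and in 36.8% of all promoters. GCGTG was found at 17 family starts (34.7%) and in 23.5% of all. AGGTCA was found at 1 family start (2.04%), the one of ABCG2 shown above, and in 7.63% of all promoters. Starts of a gene share sequence, and these matches are a description of letters and not of bound sites.

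Many family members had low signals in L-428 cells. Above the filter were 41 of the 99 probe sets (41.4%), against 54.5% of all probe sets with a single symbol. Of the 45 genes 24 (53.3%) were measured, against 11794 of all 19775 genes. The share differed between subfamilies. The ribosome-associated subfamilies ABCE (1 of 1) and ABCF (3 of 3) and the peroxisomal ABCD (3 of 3) were measured in full, for the genes analysed here. Of ABCA 7 of 13 genes, of ABCB 4 of 8, of ABCC 4 of 12 and of ABCG 2 of 5 genes were measured.

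The 21 genes without a probe set above the filter were ABCA1, ABCA4, ABCA6, ABCA8, ABCA9, ABCA12, ABCB4, ABCB5, ABCB9, ABCB11, ABCC2, ABCC3, ABCC8, ABCC9, ABCC11, ABCC12, ABCC13, ABCC6P1, ABCG4, ABCG5 and ABCG8. They include the cholesterol exporter ABCA1, the bile salt pump ABCB11, the canalicular exporter ABCC2, the sulfonylurea receptors ABCC8 and ABCC9 and the sterol transporters ABCG5 and ABCG8. The 50 probe sets of these genes had signals between 0.546 and 88.9 on the control array and between 4.86 and 94.9 on the knock-down array. Among the 58 family probe sets below the filter, 47 (81.0%) had the higher signal on the knock-down array, and the median signal was 11.7 on the control and 21.9 on the knock-down array. All 18712 probe sets below the filter with a single symbol were shifted the same way, with medians of 23.6 and 30.5 and 65.9% higher. Ratios of single genes are therefore not given in this range.

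**Figure D1:**
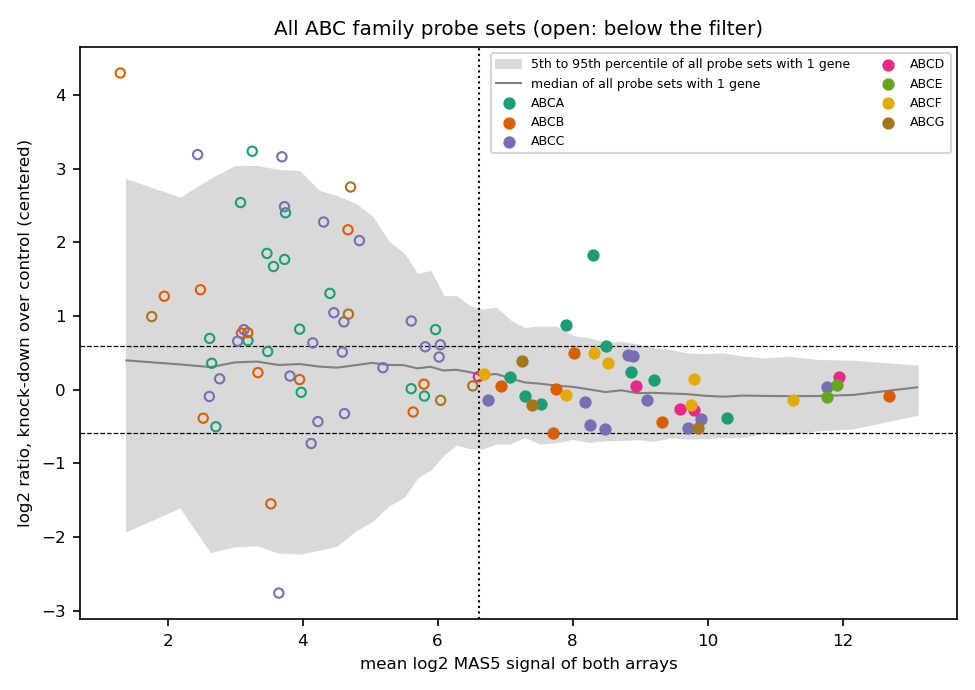
Log2 ratio of knock-down over control (vertical axis) against the mean log2 signal of both arrays (horizontal axis) for the 99 ABC family probe sets, colored by subfamily and open below the filter (dotted line). The grey band spans the 5th to 95th percentile of all probe sets with a single gene symbol, the dashed lines stand at 1.5-fold, and the 41 probe sets above the filter lie between -0.58 and 1.83.

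Above the filter, the family as a whole lay close to all other genes. The median log2 ratio of the 24 measured genes was 0.041, and that of all 11794 measured genes was -0.0069. Of the 24 genes, 10 had a log2 ratio below 0 and 14 above 0. Over all genes 51% were below 0. The values went from -0.53 for ABCC10 to 0.88 for the pseudogene ABCA17P.

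At least 1.5-fold lower in the knock-down cells were 0 of the 24 genes, where the share over all measured genes was 5.42%. At least 1.5-fold higher were 2 of 24, ABCA17P and ABCA3, where the share over all genes was 7.54%. A difference of 2-fold was reached by 0 family genes in either direction, and by 0.729% of all genes for lower and 1.73% for higher values. Counted over probe sets, 0 of the 41 were at least 1.5-fold lower (6.54% of all probe sets above the filter with a single symbol) and 3 were at least 1.5-fold higher (7.38% of all).

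**Figure D2:**
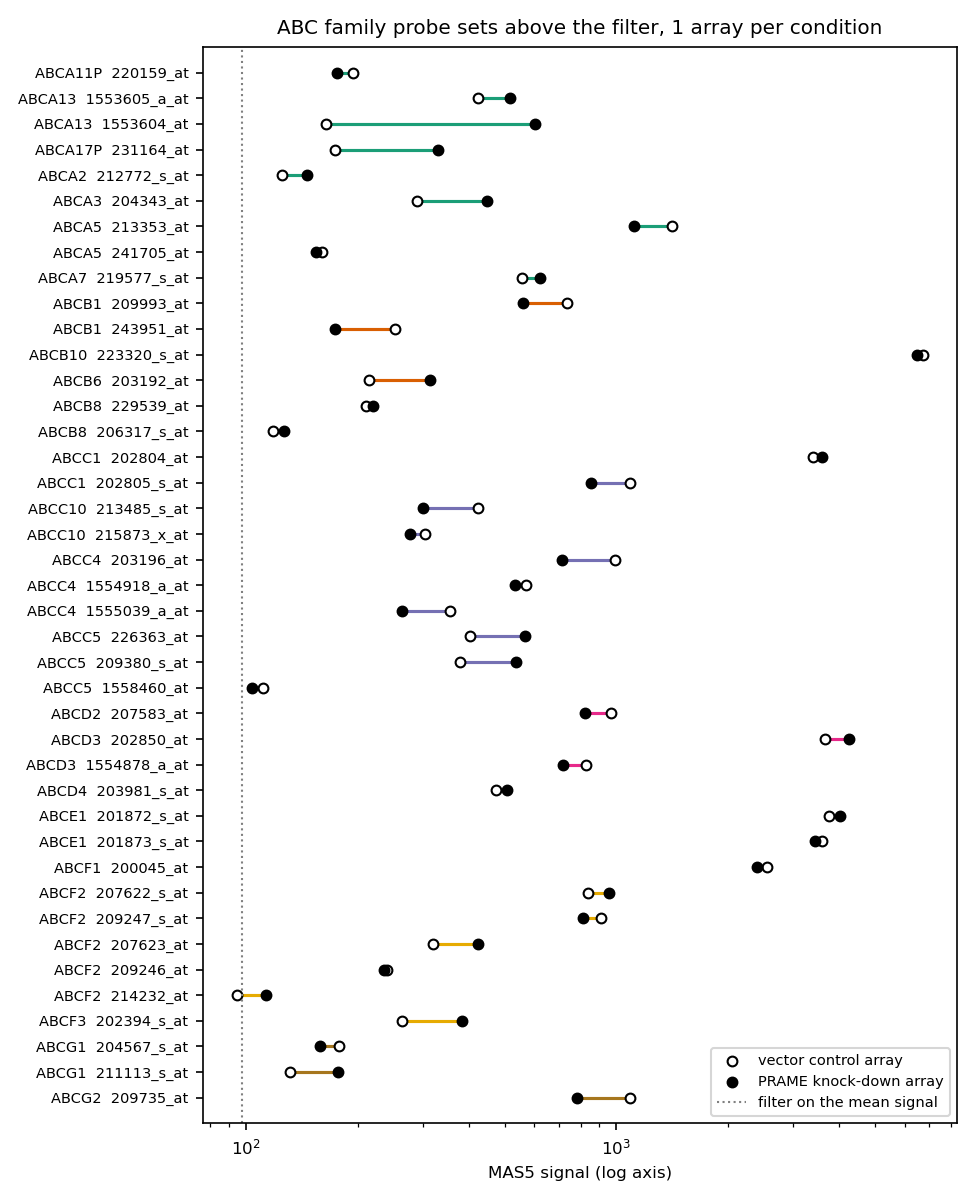
MAS5 signals (log axis) of the 41 ABC family probe sets above the filter, with an open circle for the vector control array and a filled circle for the PRAME knock-down array, joined by a line in the color of the subfamily. The longest line is that of ABCA13 probe set 1553604_at (165 and 603), and the filled circles of ABCB1, ABCG2, ABCC4 and ABCC10 lie to the left of the open circles.

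Of the drug efflux members, ABCB1 and ABCG2 had lower signals in the knock-down cells by less than 1.5-fold, and the probe sets of ABCC1 did not go one way. The ABCB1 probe set 209993_at had a signal of 737 on the control array and 559 on the knock-down array, a log2 ratio of -0.44. The second ABCB1 probe set, 243951_at, had 252 and 174, a log2 ratio of -0.58, which is just short of 1.5-fold. Of the 1000 probe sets nearest in mean signal, 14.2% had a lower log2 ratio than 209993_at and 7.1% a lower one than 243951_at.

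A further probe set, 209994_s_at, is annotated to ABCB1 and to its neighbor on chromosome 7, ABCB4 (MDR3, a phospholipid carrier of liver cells), and is for this reason no member. Its signal was 612 on the control array and 354 on the knock-down array, a log2 ratio of -0.84 or 1.79-fold lower, and 1.8% of the 1000 nearest probe sets were lower. The probe sets of ABCB4 alone had low signals on either array, 6.49 and 6.45 on the control and 5.12 and 11.3 on the knock-down array. The 3 probe sets that match ABCB1 were thus lower in the knock-down cells, and only the shared one passed 1.5-fold.

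ABCG2, a pump of topoisomerase inhibitors and porphyrins, had a single probe set, 209735_at. Its signals were 1089 on the control array and 784 on the knock-down array, a log2 ratio of -0.52, and 9.5% of the nearest probe sets were lower. Since 1 probe set on 1 array per condition gave this value, nothing else on the arrays bears on it.

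ABCC1, which exports glutathione conjugates and anthracyclines, had a signal of 3398 in the control and 3582 in the knock-down cells with probe set 202804_at, a log2 ratio of 0.031. The other probe set, 202805_s_at, had 1085 and 852, a log2 ratio of -0.39. The probe sets of ABCC1 differed from each other by 0.42 on the log2 scale. Over 5840 genes with several probe sets above the filter, the pooled SD between probe sets of a gene was 0.33, so the ABCC1 value is not settled in direction.

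Over the 3 drug efflux genes, 4 of 5 probe sets had a log2 ratio below 0, with a median of -0.44, and 0 were at least 1.5-fold lower. Of all 22379 probe sets above the filter with a single symbol, 11632 were below 0 and 6.54% were at least 1.5-fold lower. Most probe sets of the 3 genes had mean signals between 200 and 1500. Among 11858 probe sets with such signals, the 5th percentile of the log2 ratio was -0.67 and the 95th was 0.61. The values of ABCB1, ABCG2 and ABCC1 lay inside this range, and the shared ABCB1 and ABCB4 probe set lay outside.

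**Figure D3:**
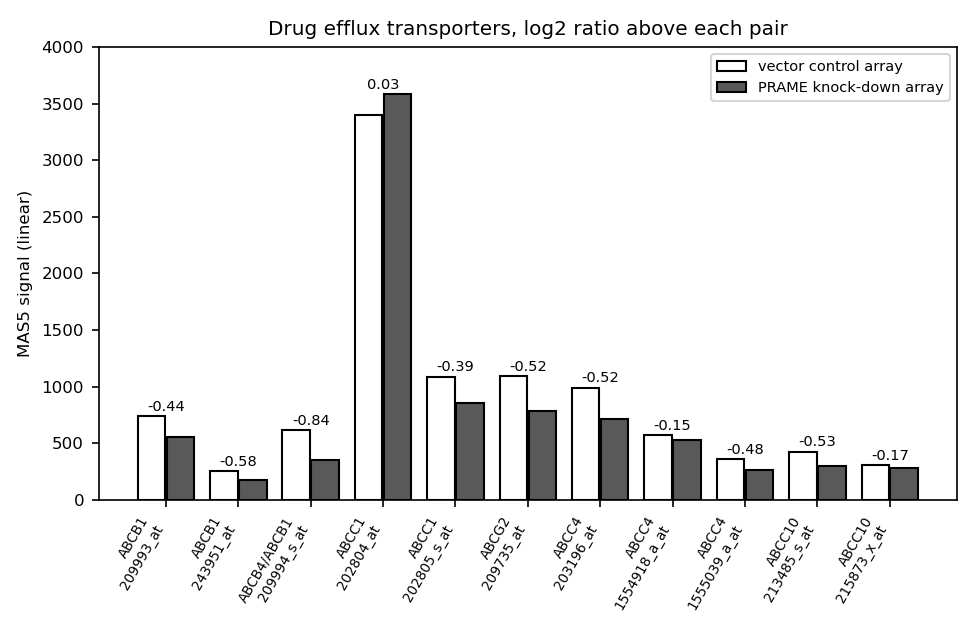
MAS5 signals (linear axis from 0) of the probe sets of ABCB1, ABCC1, ABCG2, ABCC4 and ABCC10 above the filter and of the probe set shared by ABCB4 and ABCB1, with a white bar for the vector control array and a grey bar for the PRAME knock-down array. The centered log2 ratio stands above each pair and is below 0 for each pair except ABCC1 probe set 202804_at, where it is 0.03.

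Subfamily ABCC had the lowest and one of the highest values side by side. ABCC10 (MRP7), a pump of taxanes, had the lowest log2 ratio of the measured family genes. Its probe set 213485_s_at had signals of 422 in the control and 301 in the knock-down cells (-0.53), and 215873_x_at had 304 and 278 (-0.17). ABCC4 had 991 and 714 with 203196_at (-0.52), 356 and 263 with 1555039_a_at (-0.48) and 570 and 531 with 1554918_a_at (-0.15). Another ABCC4 probe set was below the filter, with signals of 6.39 and 7.29. ABCC5 (MRP5), like ABCC4 an exporter of cyclic nucleotides, had higher signals in the knock-down cells with 226363_at (402 and 566, 0.45) and with 209380_s_at (378 and 537, 0.46). The remaining ABCC5 probe set, 1558460_at, had 111 and 104 (-0.15), close to the filter. The median of the 4 measured ABCC genes was -0.24, with a range from -0.53 to 0.45.

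ABCB1, ABCG2, ABCC4 and ABCC10 together had 8 probe sets above the filter, and 8 of 8 had lower signals in the knock-down cells, by log2 ratios of -0.58 to -0.15. These 4 genes were put together after their values were seen, so this count describes them and adds no support. All of these values stayed short of 1.5-fold.

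Subfamily ABCA held the largest differences of the family, and they were toward higher signals in the knock-down cells. ABCA3, which loads surfactant phospholipids into lamellar bodies and is known for drug sequestration in leukemia cells, had signals of 290 in the control and 448 in the knock-down cells. This was a log2 ratio of 0.59, right at the 1.5-fold limit. ABCA17P, a transcribed pseudogene beside ABCA3 on chromosome 16 with 1 other annotated gene between them, had 174 and 330, a log2 ratio of 0.88 or 1.84-fold. Among the 1000 nearest probe sets 97.1% were below ABCA17P, and 94.0% below ABCA3.

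ABCA13, which encodes a very large protein, had probe sets that were both higher in the knock-down cells but by unequal amounts. Probe set 1553605_a_at had signals of 423 and 517 (0.24), and 1553604_at had 165 and 603 (1.83, or 3.55-fold). The third probe set, 1553295_at, was below the filter with 47.8 and 49.8. The range between the probe sets above the filter was 1.58, the widest of the 12 family genes with several, so the 3.55-fold value belongs to 1 probe set and not to the gene.

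The lowest ABCA gene was ABCA5, a lysosomal lipid carrier, with signals of 1412 in the control and 1113 in the knock-down cells (213353_at, -0.39) and of 160 and 155 with 241705_at (-0.094). Its neighbors ABCA6, ABCA8 and ABCA9 were not measured. ABCA7, ABCA2 and the pseudogene ABCA11P had log2 ratios of 0.12, 0.17 and -0.19. The median of the 7 measured ABCA genes was 0.17.

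Among the other ABCB genes, the mitochondrial members differed little or were higher. ABCB6, a porphyrin carrier, was the highest ABCB gene, with signals of 214 in the control and 313 in the knock-down cells (0.50). ABCB10, which is needed for heme synthesis in erythroid cells, had signals of 6717 and 6496 and a log2 ratio of -0.093. ABCB8, part of a mitochondrial potassium channel, had log2 ratios of 0.011 and 0.051 with its own probe sets, and a probe set that it shares with ASIC3 had 154 and 236 (0.58). The 4 measured ABCB genes had a median of -0.041 and went from -0.44 for ABCB1 to 0.50 for ABCB6.

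In subfamily ABCD, ABCD2 was lowest with signals of 965 in the control and 822 in the knock-down cells (-0.28), and ABCD3 (PMP70), the main carrier of branched and dicarboxylic acyl-CoA into peroxisomes, was highest with 3651 and 4246 (0.17). A second probe set of ABCD3 had 830 and 716 (-0.26), the opposite direction. ABCD4, a lysosomal protein of vitamin B12 export, had 474 and 507 (0.050). In subfamily ABCG, ABCG1, an exporter of cholesterol to lipoproteins, had 178 and 159 with 204567_s_at (-0.21) but 131 and 177 with 211113_s_at (0.39). ABCG2 and ABCG1 were the only ABCG genes measured, and their median was -0.36.

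ABCE1, which splits ribosomes for recycling after termination, had signals of 3744 and 4021 with 201872_s_at (0.058) and of 3582 and 3430 with 201873_s_at (-0.11). ABCF1, a partner of initiation factor eIF2, had 2553 and 2392 (-0.14). ABCF3, a relative of a yeast cofactor in the response to amino acid starvation, was the highest ABCF gene with 264 in the control and 384 in the knock-down cells (0.50). ABCF2 had 5 probe sets above the filter, with log2 ratios of -0.21, -0.076, 0.14, 0.21 and 0.36. Over ABCE1 and the ABCF genes, 4 of 9 probe sets were below 0 and 0 were at least 1.5-fold lower. The values over all probe sets above the filter with a single symbol were 11632 of 22379 below 0 and 6.54% at least 1.5-fold lower.

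**Figure D4:**
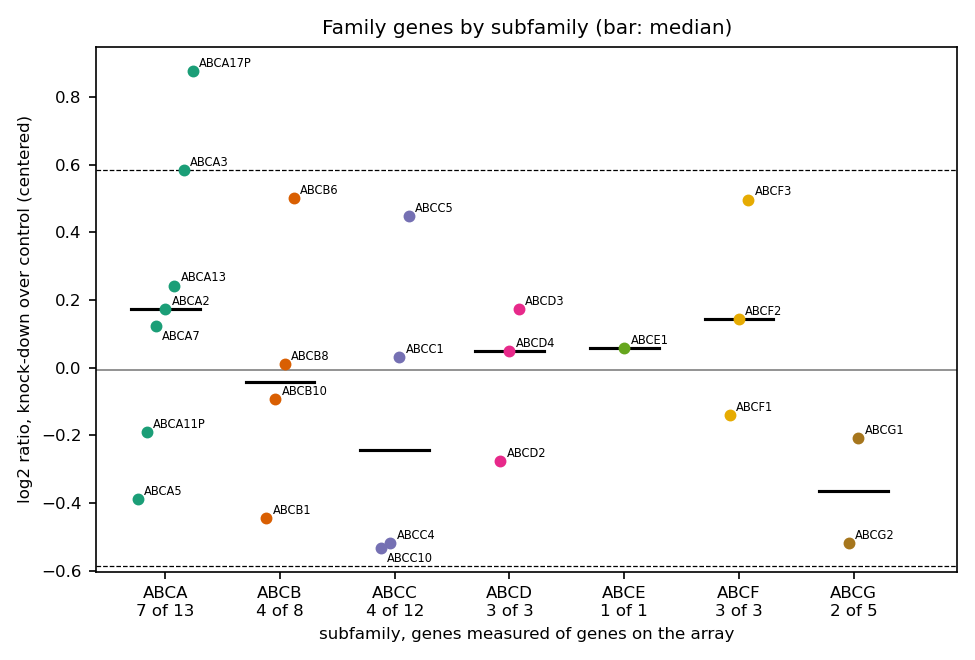
Centered log2 ratio of knock-down over control for the 24 measured ABC family genes, each a point at its probe set with the highest mean signal, by subfamily with the number of genes measured of those on the array. Black bars are medians of the subfamily (0.17 for ABCA, -0.24 for ABCC and -0.36 for ABCG), the grey line is the median of all genes and dashed lines stand at 1.5-fold, and every subfamily with more than 2 measured genes has points on either side of 0.

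The medians of the subfamilies went from -0.36 (ABCG, 2 genes) to 0.17 (ABCA, 7 genes), with 0.050 for ABCD, 0.058 for ABCE1 and 0.14 for ABCF. Each rests on 1 to 7 genes, and the ranges of ABCA, ABCB, ABCC, ABCD and ABCF overlapped around 0. Of the 12 family genes with several probe sets above the filter, 4 were lower with each probe set (ABCA5, ABCB1, ABCC4 and ABCC10), 2 were higher with each (ABCA13 and ABCB8) and 6 went both ways (ABCC1, ABCC5, ABCD3, ABCE1, ABCF2 and ABCG1). The same counts were not made over all 5840 genes with several, so these describe the agreement between probe sets and set the family apart in no way.

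ABC genes that carry other symbols were looked at separately. TAP1, a chain of the peptide transporter for antigen presentation by MHC class I, had signals of 2237 in the control and 1652 in the knock-down cells, a log2 ratio of -0.48. TAP2, the other chain, had 1040 and 1077 (0.0054), and a second probe set of TAP2 was at -0.26. CFTR, the chloride channel of subfamily ABCC, was not measured. Of the 8 proteins that work with this transporter in loading peptides, 6 were below 0 (51% of all genes) and 2 above. Close to 0 among the 6 were CANX (-0.027), ERAP1 (-0.040), ERAP2 (-0.028) and B2M (-0.0061). The median of the 8 was -0.027, and without centering it was 0.018. At the brightest probe set 0 passed 1.5-fold in either direction, where the shares over all genes were 5.42% lower and 7.54% higher. By this measure the largest values were those of the chaperones CALR (2654 and 1919, -0.51) and PDIA3 (6150 and 4976, -0.35). The 3 probe sets of PDIA3 went from -0.35 to 0.30, and those of ERAP1 from -0.092 to 0.76.

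Glutathione and its conjugates are substrates of ABCC pumps. Of the 20 genes listed for their synthesis and conjugation, 19 had a probe set with a single symbol. Of these 14 were measured, with a median of 0.080. At the brightest probe set 1 was at least 1.5-fold lower (5.42% of all genes) and 0 higher (7.54% of all genes). The 1 gene was GSS (glutathione synthetase), with signals of 1405 in the control and 943 in the knock-down cells (-0.62), while its second probe set had 0.014. The transferases GSTA4 (366 and 502, 0.41), GSTM2 (285 and 385, 0.38) and MGST3 (3933 and 5176, 0.35) were higher by less than 1.5-fold, and the probe sets of MGST3 went from -0.78 to 0.62. Those of GSTM4 went from -0.60 to -0.33.

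Of 20 listed other carriers of cisplatin, copper and drugs, 17 had a probe set with a single symbol. The 14 measured genes had a median of 0.033. At the brightest probe set 1 was at least 1.5-fold lower (5.42% of all genes) and 1 at least 1.5-fold higher (7.54% of all genes). The higher one was the copper transporter SLC31A2 (CTR2), with signals of 89.9 in the control, which is below the filter, and 161 in the knock-down cells (0.79). The lower one was SLC19A1, the carrier of reduced folates and methotrexate, with 842 and 556 (-0.64). Its 4 probe sets above the filter were all below 0, from -0.64 to -0.18. ATOX1, a copper chaperone, had 1271 and 912 (-0.52), and the carnitine carrier SLC22A5 had 433 and 601 (0.43). Probe sets other than the brightest passed 1.5-fold toward higher values for LRRC8A, SLCO3A1 and SLC29A2. Their probe sets went from -0.10 to 0.87, from -0.050 to 0.87 and from 0.36 to 0.81.

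A list of 18 genes held factors that bind the letters searched above and other proteins known to regulate ABCB1 or ABCG2. Of these 16 had a probe set with a single symbol and 15 were measured. Below 0 were 9 of the 15 (51% of all genes), and the median was -0.037. At the brightest probe set 0 passed 1.5-fold, where the shares over all genes were 5.42% lower and 7.54% higher. PIM1, a kinase known to act on the ABCG2 protein rather than on its transcription, was the lowest by this measure. It had signals of 3207 in the control and 2260 in the knock-down cells (-0.55). FOXO3 followed with 4353 and 3147 (-0.51). NFYA, a subunit of the CCAAT-binding factor NF-Y, had 901 and 674 (-0.47), and its 5 probe sets went from -0.62 to 0.045. ARNT, the partner of the aryl hydrocarbon receptor, had 418 and 588 (0.45), and its 4 probe sets went from -0.087 to 0.58. The probe sets of SP1 went from -0.64 to 0.038 and those of NFE2L2 from -0.61 to -0.11.

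For sterol sensing and cholesterol efflux, in which ABCA1 and ABCG1 take part, 15 of 17 genes had a probe set with a single symbol. Of these 13 were measured, with a median of -0.096. At the brightest probe set 1 was at least 1.5-fold higher (7.54% of all genes) and 0 lower (5.42% of all genes). The lipoprotein receptor SCARB1 had signals of 237 in the control and 484 in the knock-down cells (0.99), but a second probe set had 0.24. RXRA, the partner of retinoic acid and sterol receptors, had 632 and 459 (-0.51), and its other probe set 0.38. The lysosomal protein NPC2 had 1292 and 1837 (0.46). SREBF2, the transcription factor of cholesterol synthesis, had 1167 and 875 (-0.46), with other probe sets up to 0.68. The probe sets of APOE went from 0.021 to 0.74.

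Of 15 peroxisomal partners of the ABCD genes, 12 had a probe set with a single symbol and all 12 were measured. Of these 9 were below 0 (51% of all genes) and 0 passed 1.5-fold, with a median of -0.050. Past 1.5-fold over all genes were 5.42% for lower and 7.54% for higher values. The largest value was 0.39 for the acyl-CoA synthetase SLC27A4 (341 and 462). Of 19 mitochondrial iron-sulfur and heme partners, 16 had a probe set with a single symbol and all 16 were measured. Of these 8 were below 0 and 0 passed 1.5-fold at the brightest probe set, with a median of 0.013. Among them BOLA3 had 2083 and 1585 (-0.44), the iron carrier SLC25A37 had 975 and 1362 (0.44), FECH (ferrochelatase) had 1622 and 1240 (-0.43) and ALAS1, the first enzyme of heme synthesis, had 1048 and 1412 (0.39). The 8 probe sets of SLC25A37 above the filter went from -0.81 to 0.44 and the 3 of FECH from -0.44 to 0.34, so neither has a settled direction. The pore subunits that pair with ABCC8 and ABCC9 were not measured (0 of 2).

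Genes of the translation machinery around ABCE1 were set beside it. Of 13 listed genes of termination and ribosome recycling 12 were measured, 2 were at least 1.5-fold lower and 0 higher, with a median of -0.019. Over all genes the shares were 5.42% and 7.54%. MCTS1, which with DENR removes tRNA from recycled small subunits, had signals of 2765 in the control and 1177 in the knock-down cells (-1.28), while its other probe set above the filter had -0.17. ETF1 (eRF1), the release factor that ABCE1 binds, had 4946 and 3206 (-0.67), and its second probe set the same log2 ratio of -0.67. DENR itself had 7805 and 6635 (-0.28), with other probe sets up to 0.12. EIF1 had 22415 and 27586 (0.25), but its 7 probe sets went from -1.18 to 0.25. The probe sets of HBS1L went from -0.68 to -0.24. Of 8 partners of the ABCF genes 8 were measured, 5 were below 0 and 0 passed 1.5-fold when each gene was taken at its brightest probe set, with EIF5 highest (6648 and 9268, 0.43) and EIF2S1 lowest (5169 and 4253, -0.33). EIF2S2, the beta subunit of eIF2, was at -0.012 with its brightest probe set and at -1.64 with the other one above the filter.

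**Figure D5:**
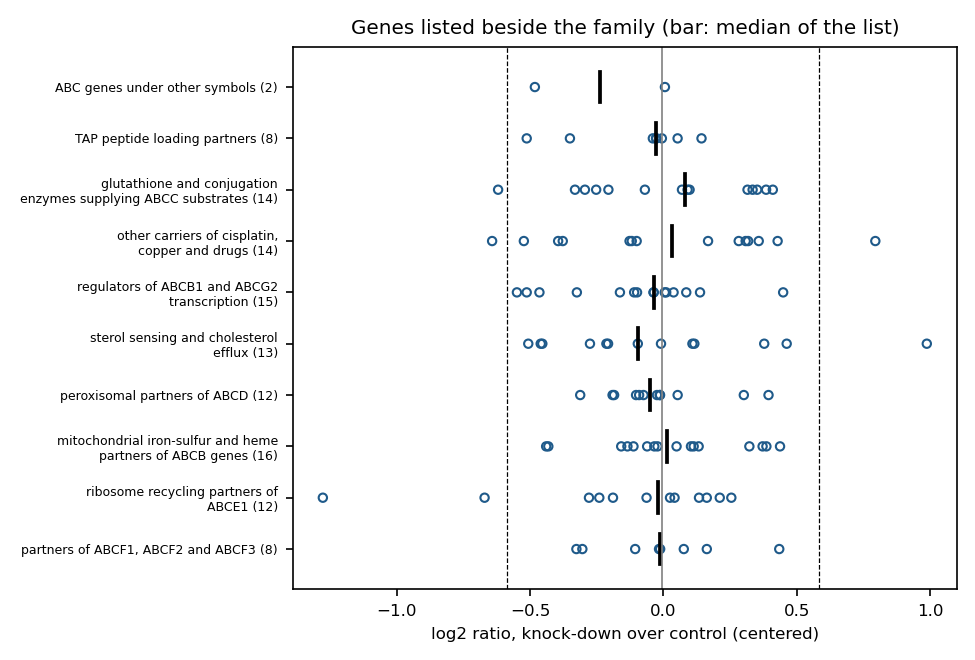
Centered log2 ratio of knock-down over control for the measured genes of 10 lists of genes set beside the ABC family, each circle a gene at its probe set with the highest mean signal and each black bar the median of its list, with the number of measured genes in parentheses. The grey line is the median of all genes and the dashed lines stand at 1.5-fold, which MCTS1 (-1.28), ETF1, SLC19A1 and GSS pass on the lower side and SCARB1 (0.99) and SLC31A2 on the higher side.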

How the data were processed

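The authors processed both arrays with Affymetrix Expression Console 1.1 and deposited MAS5 intensity values on a linear scale (1 array per condition, 54675 probe sets, trimmed mean of 500.1 on both). The 62 control probe sets were left out. Signals were set on the log2 scale, 27307 probe sets with a mean at or above the median (97.7) were kept, and log2 ratios were centered on their median (0.045 subtracted). By GEO's platform annotation 41091 probe sets have 1 symbol, of which 41037 are in RefSeq (GRCh38.p14), 1801 have several and 11783 have none. Only probe sets with 1 symbol represent genes. Named are the drug efflux members, genes past 1.5-fold, the extremes of each subfamily, genes with discordant probe sets, ABCE1, ABCF and up to 4 genes per list. TAP2, the genes shown with markers and some further members were named after their values were seen. The members and lists were chosen with earlier results of these data known. A list of ABC genes with other symbols was corrected after the values were seen, by removing TAPBP, which is no ABC gene. No p-values are given. The scripts were tested on simulated data. Computations were made in Python 3.11.15 with pandas 2.3.3, numpy 2.4.6, matplotlib 3.10.9 and statsmodels 0.14.6.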

Additional observations from a re-analysis of the deposited data

How the results depend on the processing

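Alternatives were no centering, quantile normalization, loess (span 0.4), an offset of 64, a stricter filter (75th percentile) or none, medians over probe sets instead of the brightest one, and leaving out probe sets with the shared endings _s_at, _x_at and _a_at. The number of family genes at least 1.5-fold higher (2) was 1 with quantile normalization, loess and the offset, 12 of 45 without a filter (17.6% of all genes), 0 of 13 at the 75th percentile (3.44% of all genes) and 3 with the median of probe sets (ABCA13, ABCA17P and ABCA3). ABCA3 was at 0.57 with quantile normalization, 0.58 with loess, 0.50 with the offset, 0.49 without a filter and 0.57 without shared probe sets, which is under 1.5-fold. Without a filter 4 of 45 genes were at least 1.5-fold lower (ABCC10, ABCC4, ABCC8 and ABCG2, against 11.8% of all genes) and 5 at least 2-fold higher (9.41% of all genes). ABCC8 is counted from 210246_s_at, far below the filter with signals of 22.2 in the control and 13.8 in the knock-down cells. Its other probe set went the other way (6.51 and 11.8). ABCA13 made 1 gene at least 2-fold higher with the median of probe sets and 1 without shared probe sets. ABCB1 probe set 243951_at passed 1.5-fold with quantile normalization (-0.66), loess (-0.67), no filter (-0.68) and without shared probe sets (-0.60), and ABCG2 without a filter (-0.61). Leaving out the filter or the shared probe sets changed the median used for centering, which lowered every log2 ratio by a fixed amount per setting. ABCC1 probe set 202804_at went from 0.031 to -0.064 without a filter and to 0.016 without shared probe sets.

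At the 75th percentile the family median was -0.035, that of ABCA -0.073 and that of ABCB -0.21. The ABCA median was 0.49 without a filter and 0.57 without shared probe sets, that of ABCC 0.28 and 0.016, and that of ABCG -0.045 without a filter. Without a filter the list medians were -0.025 (glutathione), -0.16 (regulators of ABCB1 and ABCG2) and -0.081 (mitochondrial partners). The last was 0.11 at the 75th percentile and -0.072 with the median of probe sets. Other carriers had 0.23 at the 75th percentile, 0.23 with the median of probe sets and -0.067 without shared probe sets, and ribosome recycling had 0.083, -0.13 and -0.37. The settings change the probe sets used for centering, the genes measured or the probe set that represents a gene. The parts of these in the moves were not separated or tested. Of 227 values, 189 were labelled as the same. For a count this meant a change of at most 1.5-fold. For a median it meant a move smaller than the pooled SD between probe sets (0.33) divided by the square root of the number of genes. A single gene or probe set had to stay on its side of 1.5-fold and move by less than this SD. Of all genes past 1.5-fold, 41.8% were lower, against 51.8% at the 75th percentile.

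No paired analysis was possible because each condition has 1 array. For the same reason no value has an error between replicates, and 1 array and its condition cannot be told apart. Signals near the filter are close to background, where ratios spread more widely.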
